A study of Rattus norvegicus with 9 samples.

Results

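Glycogen is the stored form of glucose, and the data below describe 9 genes that make it, break it down or control these steps in the rat spinal cord. The genes were Gys1, Gbe1, Pgm1, Pygm, Pygb, Phkg1, Phka1, Phkb and Ppp1r3c. They were found by name among the 34890 loci of the deposited expression table, and each of the 9 names matched a single locus. The list was chosen from earlier results of these same samples, in which genes of this kind were lower in PLM than in SNI, so the levels of the 9 genes in the 3 groups are given as a description with no p-value.

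RNA of the ipsilateral lumbar cord was sequenced from 9 male Sprague Dawley rats of wild-type genotype, whose age is not given in the sources used here, with 3 biological replicates in each of 3 groups. JA rats had a sham operation and oral saline. SNI rats had spared nerve injury, in which the tibial and common peroneal nerves are tied and cut while the sural nerve is kept, and also received oral saline. PLM rats had the same injury and received paeoniflorin and liquiritin by mouth, with paeoniflorin at 20.65 mg/ml in the labels of all 3 samples and liquiritin at 3.98, 3.99 and 3.100 mg/ml in the labels of replicates 1, 2 and 3, of which the study's methods give the first. All 9 rats were therefore operated, injury was shared by SNI and PLM, and no group received the drugs without injury.

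In the central nervous system glycogen is held mainly by astrocytes. Glycogenin (Gyg1) starts the particle, glycogen synthase (Gys1) lengthens its chains from UDP-glucose made by Ugp2, and the branching enzyme (Gbe1) adds branch points. Glycogen phosphorylase, here the muscle form Pygm and the brain form Pygb, releases glucose phosphate from the chain ends, and phosphoglucomutase (Pgm1) links the released sugar phosphate to glycolysis and to the supply of UDP-glucose. Phosphorylase kinase switches phosphorylase on and is built from regulatory alpha (Phka1, the muscle form) and beta (Phkb) subunits, a catalytic gamma subunit (Phkg1 or Phkg2) and calmodulin. Ppp1r3c, also called PTG, is a targeting subunit that holds protein phosphatase 1 at the glycogen particle, where the phosphatase activates synthase and inactivates phosphorylase.

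The promoter windows of Ppp1r3c, Pygm and Pygb are shown because these genes cover the control and breakdown steps that the results turn on. They were taken from RefSeq (rat assembly GRCr8), run from 250 bases before to 50 bases after the annotated gene start, and are written 5′ to 3′ on the strand of the gene. A window was found for 9 of the 9 genes. Capitals mark the letters ACGTG on either strand, a core shared by E-boxes and hypoxia-response elements. Ppp1r3c is on the minus strand at chr1:243878478-243878777, Pygm on the plus strand at chr1:213119555-213119854 and Pygb on the plus strand at chr3:160071891-160072190.
Ppp1r3c: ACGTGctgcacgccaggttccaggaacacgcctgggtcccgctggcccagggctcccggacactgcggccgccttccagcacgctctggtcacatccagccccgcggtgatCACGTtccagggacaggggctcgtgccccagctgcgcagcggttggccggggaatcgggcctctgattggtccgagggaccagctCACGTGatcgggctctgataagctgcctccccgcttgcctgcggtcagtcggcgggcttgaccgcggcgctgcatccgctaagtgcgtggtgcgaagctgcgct
Pygm: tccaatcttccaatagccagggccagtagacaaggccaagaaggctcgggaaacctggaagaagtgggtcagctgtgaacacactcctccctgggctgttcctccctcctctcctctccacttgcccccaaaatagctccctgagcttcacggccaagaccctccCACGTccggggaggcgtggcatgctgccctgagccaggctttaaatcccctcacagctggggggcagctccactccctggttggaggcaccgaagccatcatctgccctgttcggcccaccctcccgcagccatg
Pygb: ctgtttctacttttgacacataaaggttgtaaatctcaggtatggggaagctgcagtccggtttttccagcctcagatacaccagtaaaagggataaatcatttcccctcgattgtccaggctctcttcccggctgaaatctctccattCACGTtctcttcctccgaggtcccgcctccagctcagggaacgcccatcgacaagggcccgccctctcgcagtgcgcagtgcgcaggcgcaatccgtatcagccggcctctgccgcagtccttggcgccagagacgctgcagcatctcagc

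ACGTG was present on at least 1 strand in the windows of 6 of the 9 genes (Gbe1, Pgm1, Phkg1, Ppp1r3c, Pygb and Pygm) and in 19.3% of all 33469 RefSeq windows of this length. The full E-box CACGTG, which holds ACGTG on both strands, was found for 1 of the 9 genes, Ppp1r3c, and in 6.42% of all windows. The cAMP-response element TGACGTCA was found for 0 of the 9 genes and in 1.83% of all windows. A match of letters is a description of the sequence, and the RNA data do not bear on binding at these windows.

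Expression was given as TPM, a measure of transcript abundance scaled for gene length and to the same total in each sample. Totals lay between 999999.57 and 1000000.42, which leaves the number of reads behind a value unknown, and counting intervals could not be made. The 13 mitochondrially encoded protein genes held 23.7% to 26.1% of the TPM of an SNI sample, 31.3% to 32.8% of a PLM sample and 25.3% to 32.8% of a JA sample. A larger share for those genes lowers the TPM of the rest, and the median difference between PLM and SNI over the 15474 loci averaging 1 TPM or more was -0.21 on the log2(TPM + 1) scale. The differences between PLM and SNI are therefore given on the deposited scale and again after each sample was centred on its median log2(TPM + 1). The libraries also differed in markers of Schwann cells, the myelinating cells of nerve roots, whose 5 marker genes summed to 7568 TPM in JA replicate 3, 4358 TPM in SNI replicate 2 and 3207 TPM in PLM replicate 3, and to between 122 and 1551 TPM in the other 6 samples.

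All 9 genes were detected in every sample. By mean TPM over the 9 samples the order was Pygm (70.8), Pygb (50.3), Pgm1 (39.3), Gbe1 (26.1), Ppp1r3c (12.3), Phkb (8.34), Gys1 (8.0), Phka1 (5.72) and Phkg1 (5.71). Most neighbours in this order kept their places in 9 of 9 samples, and the exceptions were Phkb, which was above Gys1 in 7 of 9 samples, and Phka1, which was above Phkg1 in 3 of 9. The 2 phosphorylases thus had the highest levels per transcript length, and the kinase subunits and synthase the lowest.

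Phosphorylase was lower in every PLM sample than in any SNI sample, for both the muscle and the brain form. Pygm was at 108, 76.4 and 40.5 TPM in JA replicates 1 to 3, at 104, 100 and 84.2 TPM in SNI, and at 49.0, 40.5 and 34.4 TPM in PLM. The PLM mean, 41.3 ± 7.3 TPM, was 42.9% of the SNI mean, 96.3 ± 10.7 TPM, and the JA samples spanned nearly the whole range of both (74.8 ± 33.6 TPM). On the log2(TPM + 1) scale Pygm differed between PLM and SNI by -1.21 ± 0.14 (standard error) as deposited and by -0.96 ± 0.16 after median centring. Pygb was at 67.3, 48.0 and 31.7 TPM in JA, at 79.9, 61.6 and 60.4 TPM in SNI, and at 33.9, 36.4 and 33.8 TPM in PLM. The PLM samples of Pygb were close together (34.7 ± 1.44 TPM), at 51.6% of the SNI mean (67.3 ± 10.9 TPM), and JA replicate 3 was below all of them. The Pygb difference between PLM and SNI was -0.92 ± 0.12 as deposited and -0.68 ± 0.11 centred.

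**Figure D1:**
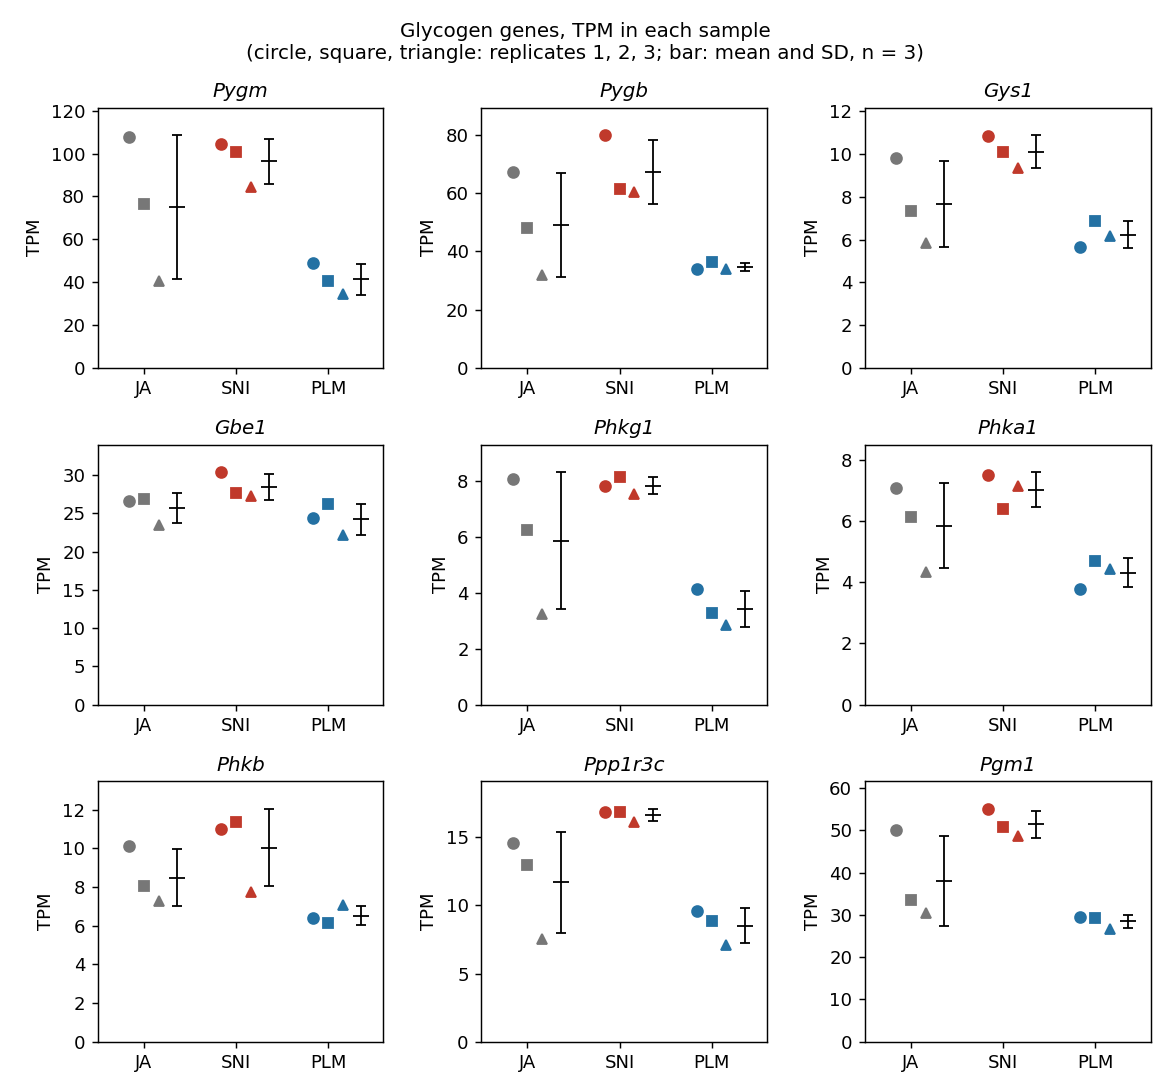
TPM of the 9 glycogen genes in each of the 9 samples, with 1 panel per gene, groups on the x axis (JA grey, SNI red, PLM blue; circle, square and triangle for replicates 1, 2 and 3) and the mean and SD of each group as bars (n = 3). The 3 PLM samples lie below the 3 SNI samples in all 9 panels, and JA replicate 3 is the lowest JA sample in each.

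The 3 phosphorylase kinase subunits among the 9 genes were lower in the PLM samples than in the SNI samples, with the largest difference for the catalytic gamma subunit Phkg1. Phkg2, the other catalytic subunit, averaged 24.6 TPM over the 9 samples and is given with the remaining isoforms below. Differences between subunits were not tested. Phkg1 was at 8.10, 6.26 and 3.25 TPM in JA, at 7.82, 8.16 and 7.55 TPM in SNI, and at 4.13, 3.29 and 2.87 TPM in PLM. The SNI samples were tightly grouped (7.84 ± 0.306 TPM), the PLM mean (3.43 ± 0.642 TPM) was 43.7% of theirs, and JA replicate 3 fell among the PLM samples. Its difference was -1.01 ± 0.12 as deposited and -0.76 ± 0.14 centred. Phka1 was at 7.08, 6.14 and 4.32 TPM in JA, at 7.50, 6.39 and 7.15 TPM in SNI, and at 3.79, 4.70 and 4.44 TPM in PLM, with no overlap between SNI and PLM. The Phka1 difference was -0.60 ± 0.11 as deposited and -0.35 ± 0.09 centred. Phkb was at 10.1, 8.06 and 7.26 TPM in JA, at 10.98, 11.4 and 7.75 TPM in SNI, and at 6.39, 6.11 and 7.04 TPM in PLM. SNI replicate 3 stood close to the PLM samples for this gene, and after median centring the 2 groups overlapped, with differences of -0.54 ± 0.15 as deposited and -0.29 ± 0.14 centred.

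Of the genes on the synthesis side, glycogen synthase and the phosphatase targeting subunit were lower in PLM than in SNI, and the branching enzyme differed least of the 9. Gys1 was at 9.82, 7.34 and 5.85 TPM in JA, at 10.9, 10.1 and 9.34 TPM in SNI, and at 5.64, 6.89 and 6.15 TPM in PLM, so that the PLM mean was 61.6% of the SNI mean. The Gys1 difference was -0.62 ± 0.10 as deposited and -0.37 ± 0.08 centred. Ppp1r3c was at 14.6, 13.0 and 7.51 TPM in JA, at 16.9, 16.9 and 16.1 TPM in SNI, and at 9.56, 8.88 and 7.11 TPM in PLM. All 3 SNI samples of Ppp1r3c were above all 6 other samples, and the PLM mean was 51.3% of the SNI mean. The Ppp1r3c difference was -0.90 ± 0.11 as deposited and -0.65 ± 0.13 centred.

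Gbe1, the branching enzyme, was at 26.7, 26.9 and 23.5 TPM in JA, at 30.4, 27.7 and 27.3 TPM in SNI, and at 24.4, 26.2 and 22.1 TPM in PLM. The groups were close together, and the PLM mean was 85.1% of the SNI mean. The Gbe1 difference of -0.23 ± 0.08 as deposited was near the median of all loci, and centred it was 0.02 ± 0.09. Pgm1, which serves both synthesis and breakdown, was at 50.02, 33.6 and 30.3 TPM in JA, at 54.9, 50.7 and 48.5 TPM in SNI, and at 29.4, 29.3 and 26.6 TPM in PLM. As deposited, all PLM samples of Pgm1 were below all samples of both other groups (after centring PLM replicate 1 was above JA replicates 2 and 3), and the PLM mean was 55.3% of the SNI mean. The Pgm1 difference from SNI was -0.83 ± 0.07 as deposited and -0.58 ± 0.08 centred.

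Across the 9 genes, the difference between PLM and SNI had a median of -0.83 as deposited and was below 0 for 9 of 9, while 13160 of all 15474 loci were below 0. PLM samples were below every SNI sample for 9 of 9 genes, and the same was true of 41.9% of all loci. With the study's thresholds, a log2 fold change beyond 1 in size with an unadjusted p-value below 0.05, 2 of the 9 (Pygm and Phkg1) were called lower, against 1.42% of all loci. With the adjusted p-value alone (limma, Benjamini-Hochberg, below 0.05), 7 of the 9 were called lower (Gbe1 and Phkb were not), against 13.6% of all loci. That count was 1 with all 9 samples in a single fit, 3 with the replicate number as a block and 0 without the most Schwann-rich library of each group, and the loci called lower in the whole table went from 2110 of 15474 to 463 of 15503, 151 of 15474 and 9 of 15345 in the same settings. These counts come from the contrast on which the list was chosen, and nothing is read from them. Phkg1 was near the fold threshold, and Pygm alone was called when PLM replicate 2, PLM replicate 3 or SNI replicate 2 was left out.

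After median centring the median of the 9 differences was -0.58, against 0.04 for all loci, and 8 of 9 were below 0, with Gbe1 the exception. The PLM samples were below every SNI sample for 7 of 9 genes, and Gbe1 and Phkb overlapped, whereas 9.73% of all loci showed this separation. No gene of the 9 passed the study's thresholds on the centred scale, against 0.659% of all loci, and 1 (Pgm1) passed the adjusted p-value alone, against 0.685%. Over all loci, calls with the study's thresholds went from 220 lower and 35 higher as deposited to 102 lower and 64 higher centred.

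**Figure D2:**
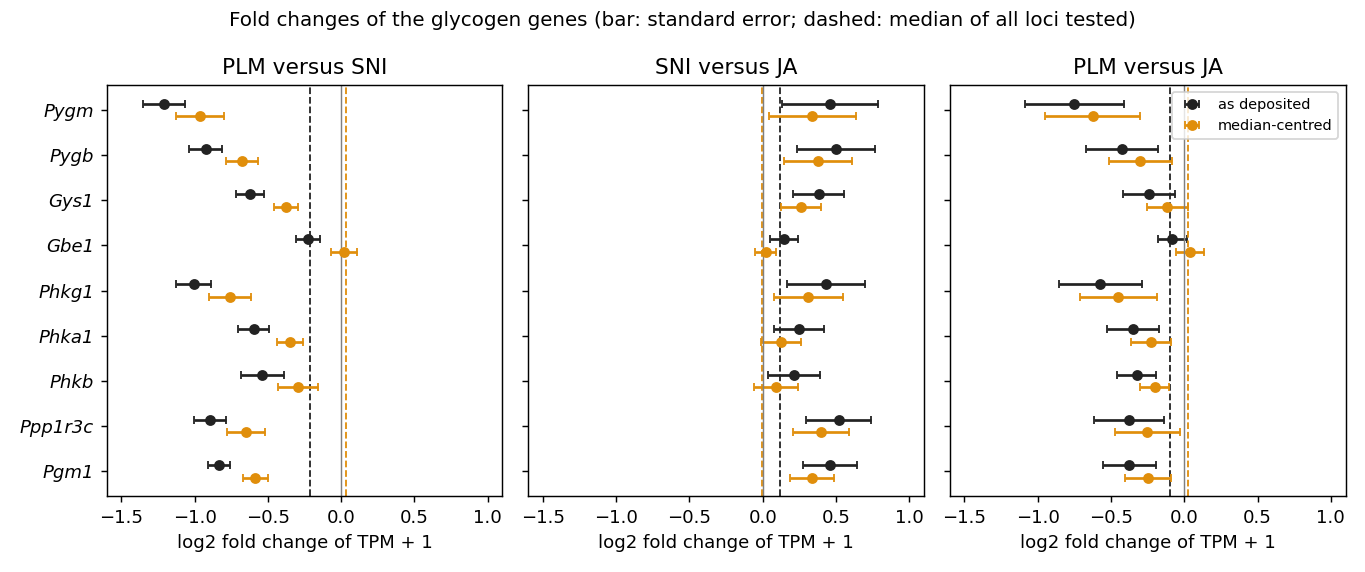
Log2 fold change of TPM + 1 for the 9 glycogen genes in PLM versus SNI, SNI versus JA and PLM versus JA (x axis; points with standard error bars), as deposited (black) and after median centring (orange), with dashed lines at the median of all loci tested. In PLM versus SNI, Pygm lies farthest from the dashed line on both scales and Gbe1 lies on or near it.

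Injured rats were compared with sham-operated rats to ask what the nerve injury itself changed. The SNI mean was above the JA mean for all 9 genes, from 111% of it for Gbe1 to 142% for Ppp1r3c, and Pygm was at 129% and Pygb at 137%. The differences ranged from 0.14 ± 0.09 for Gbe1 to 0.52 ± 0.22 for Ppp1r3c as deposited, with a median of 0.43 against 0.12 for all 15557 loci tested. Of all 15557 loci, 11887 were above 0 as deposited. The JA samples were widely spread, and SNI samples were above every JA sample for 2 of 9 genes (Ppp1r3c and Gbe1), against 12.1% of all loci, and for 1 (Ppp1r3c) after centring, against 4.0%. None of the 9 passed the study's thresholds, against 0.495% of all loci called higher. In limma 0 of all loci (0.0%) had an adjusted p-value under 0.05 in this contrast, 1104 loci had an unadjusted p-value under 0.05, and 1 of them was among the 9.

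PLM was also compared with JA, the sham group, to place the treated animals against uninjured cord. The PLM mean was below the JA mean for all 9 genes, from 55.2% of it for Pygm and 58.4% for Phkg1 to 94.3% for Gbe1. The differences ranged from -0.75 ± 0.34 for Pygm to -0.08 ± 0.10 for Gbe1 as deposited, with a median of -0.37 against -0.10 for all 15349 loci tested, and 8 of 9 remained below 0 after centring. Of all 15349 loci, 10934 were below 0 as deposited and 6702 after centring. PLM samples were below every JA sample for 2 of 9 genes (Pgm1 and Phkb), against 15.7% of all loci, and for 1 (Phkb) after centring, against 6.93%. No gene of the 9 passed the study's thresholds, against 0.658% of all loci called lower, or an adjusted p-value under 0.05 in limma, against 0.013%, and 1 of the 9 had an unadjusted p-value under 0.05, as had 1809 of all loci. The 3 comparisons share samples, so they do not give separate evidence.

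Where a gene stood relative to JA depended on which JA samples were used. JA replicate 3 was the lowest of the JA samples for 9 of 9 genes on both scales. In TPM as deposited it was below every SNI sample for 9 of 9, and lay inside the range of the PLM samples for 6 of 9, below it for Pygb and above it for Pgm1 and Phkb. JA replicates 1 and 2 were above every PLM sample for 9 of 9 genes as deposited. After centring this was no longer so for Gys1, Gbe1 and Pgm1, and JA replicate 3 was above SNI replicate 3 for Phkb. The shares of all loci with these orders are not given here, so the counts are not read as particular to the 9 genes. Without JA replicate 3 the difference between SNI and JA moved from 0.46 to 0.08 for Pygm, from 0.50 to 0.23 for Pygb and from 0.43 to 0.12 for Phkg1. The difference between PLM and JA moved from -0.75 to -1.13 for Pygm, which then passed the study's thresholds, and from -0.57 to -0.89 for Phkg1. Leaving out JA replicate 1 instead moved the values the other way, to 0.77 for Pygm, 0.76 for Pygb and 0.67 for Phkg1 in SNI versus JA, and to -0.44, -0.17 and -0.34 in PLM versus JA. JA replicate 3 was also the library with the highest sum of Schwann cell markers, and the part of this in its glycogen gene levels was not tested.

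Ratios of TPM between genes of the same sample do not change with the scaling of the sample, and they show how the members differed from each other. They are given with no test, since 3 samples against 3 cannot reach an exact two-sided permutation p below 0.1. Summed phosphorylase (Pygm and Pygb) per Gys1 was 17.8, 16.9 and 12.3 in JA, 16.9, 16.0 and 15.5 in SNI, and 14.7, 11.2 and 11.1 in PLM. All PLM ratios were below all SNI ratios, with means of 12.3 ± 2.06 and 16.1 ± 0.738. Gbe1 per Gys1 went the other way, with 2.79, 2.74 and 2.92 in SNI and 4.32, 3.8 and 3.6 in PLM, while JA ranged from 2.72 to 4.02. Pygm per Pygb was between 1.02 and 1.63 in all 9 samples, and the 3 groups overlapped.

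Isoform shares were compared in the same way. The share of Phkg1 in the sum of both catalytic subunits, Phkg1 and Phkg2, was 21.7%, 20.6% and 13.6% in JA, 22.2%, 24.9% and 22.6% in SNI, and 14.5%, 12.6% and 11.6% in PLM. The PLM shares were below all SNI shares, with means of 12.9% ± 1.45 and 23.2% ± 1.47, and JA replicate 3 again lay with PLM. Pgm1 made up 48.0%, 44.1% and 45.0% of the summed Pgm1, Pgm2, Pgm2l1 and Pgm5 in SNI, 38.2%, 37.8% and 36.4% in PLM and 39.2% to 44.6% in JA, and the PLM shares were below those of both other groups. The share of Ppp1r3c among the measured targeting subunits Ppp1r3b, c, d, e and g was 52.0% to 53.4% in SNI and 45.5% to 53.5% in PLM, and these overlapped. How reads shared by close paralogues such as Pygm, Pygb and Pygl were assigned is not given in the sources used here.

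**Figure D3:**
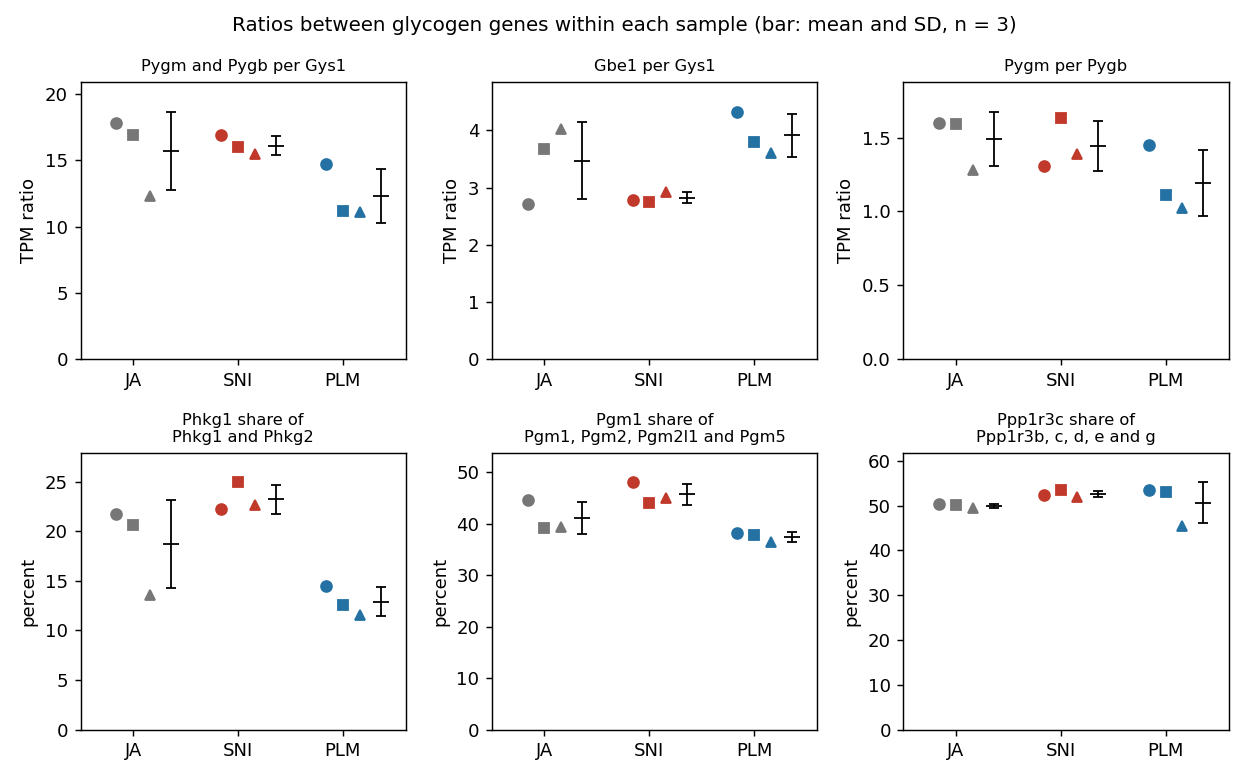
Ratios and shares between glycogen genes within each of the 9 samples (y axis: TPM ratio or percent; x axis: group; circle, square and triangle for replicates 1, 2 and 3; bars: mean and SD, n = 3). Phosphorylase per synthase and the Phkg1 and Pgm1 shares are lower, and Gbe1 per Gys1 higher, in all PLM samples than in all SNI samples, while Pygm per Pygb and the Ppp1r3c share overlap.

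The rest of the glycogen pathway was followed in a list of 30 other genes, of which 27 were found and 23, at 24 loci, passed the minimum of 1 TPM. Phka2, Calm3 and Ppp1r3f were not analysed here. In PLM versus SNI all 24 loci were below 0 as deposited, with a median of -0.27 against -0.21 for all loci, 9 fell at an adjusted p-value under 0.05 in limma (13.6% of all loci did), and 1, Ppp1r3g, also passed the study's thresholds. By the adjusted p-value, the 9 became 3 with all 9 samples in a single fit, 1 with the replicate block and 0 without the most Schwann-rich libraries, settings in which 463, 151 and 9 of all loci were called lower in place of 2110. PLM samples were below every SNI sample at 16 of the 24 loci, against 41.9% of all loci. After centring, 13 loci were below and 11 above 0 with a median of -0.02, and none had an adjusted p-value under 0.05 in limma, although 9 of the 24, and 2621 of all 15474 loci, had an unadjusted p-value under 0.05. Of the 9, 2 were higher in PLM, namely Pgm2l1 (0.21 ± 0.06), a phosphoglucomutase relative, and Ppp1ca (0.18 ± 0.07), a catalytic subunit of protein phosphatase 1. In SNI versus JA and in PLM versus JA 0 of the 24 loci were called by either rule in limma, and 7 and 4 of them had an unadjusted p-value under 0.05, as had 1104 of 15557 and 1809 of 15349 loci in all.

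Ppp1r3g, another targeting subunit of protein phosphatase 1, had the largest fall of the list. It was at 5.41, 5.22 and 1.31 TPM in JA, at 5.92, 5.99 and 6.71 TPM in SNI, and at 2.61, 1.73 and 2.40 TPM in PLM. The groups SNI and PLM did not overlap, JA replicate 3 was the lowest of all 9 samples, and the difference between PLM and SNI was -1.16 ± 0.13 (limma adjusted p = 0.0086) as deposited and -0.91 ± 0.14 (adjusted p = 0.058) centred. Ppp1r3d, of the same family, was at 4.76, 5.12 and 4.57 TPM in SNI and 2.68, 2.72 and 2.80 TPM in PLM. Its difference was -0.64 ± 0.09 (limma adjusted p = 0.0154) as deposited and -0.39 ± 0.09 (adjusted p = 0.108) centred.

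Ugp2, which makes UDP-glucose, averaged 47.0 ± 3.94 TPM in SNI against 33.8 ± 0.353 TPM in PLM (SD, n = 3 each), a difference of -0.46 ± 0.08 (limma adjusted p = 0.0204). Pgm5, of the phosphoglucomutase family, averaged 29.3 ± 3.44 TPM in SNI against 17.9 ± 2.02 TPM in PLM, a difference of -0.68 ± 0.12 (limma adjusted p = 0.0233). Gyg1, glycogenin, averaged 65.9 ± 5.60 TPM in SNI against 49.6 ± 1.03 TPM in PLM, a difference of -0.40 ± 0.08 (limma adjusted p = 0.0275). For these last 3 genes the centred differences were -0.21, -0.43 and -0.15, with limma adjusted p-values of 0.204, 0.206 and 0.435.

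The remaining isoforms did not pass the test. Pygl, the liver form of phosphorylase, was at 7.51, 8.07 and 12.8 TPM in JA, at 8.53, 14.1 and 14.9 TPM in SNI, and at 5.17, 16.5 and 7.48 TPM in PLM. Its samples overlapped across all 3 groups, and the difference between PLM and SNI was -0.44 ± 0.40 (limma adjusted p = 0.444) as deposited and -0.19 ± 0.40 (adjusted p = 0.848) centred. Phkg2, the other catalytic subunit of phosphorylase kinase, was at 27.5, 24.6 and 25.9 TPM in SNI and 24.5, 22.8 and 21.9 TPM in PLM, a difference of -0.17 ± 0.07 (limma adjusted p = 0.148) as deposited and of 0.08 ± 0.09 (adjusted p = 0.69) centred, so that its sign depended on the scale. Gys2, the liver form of synthase, was between 0 and 0.07 TPM in all samples and was not tested.

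**Figure D4:**
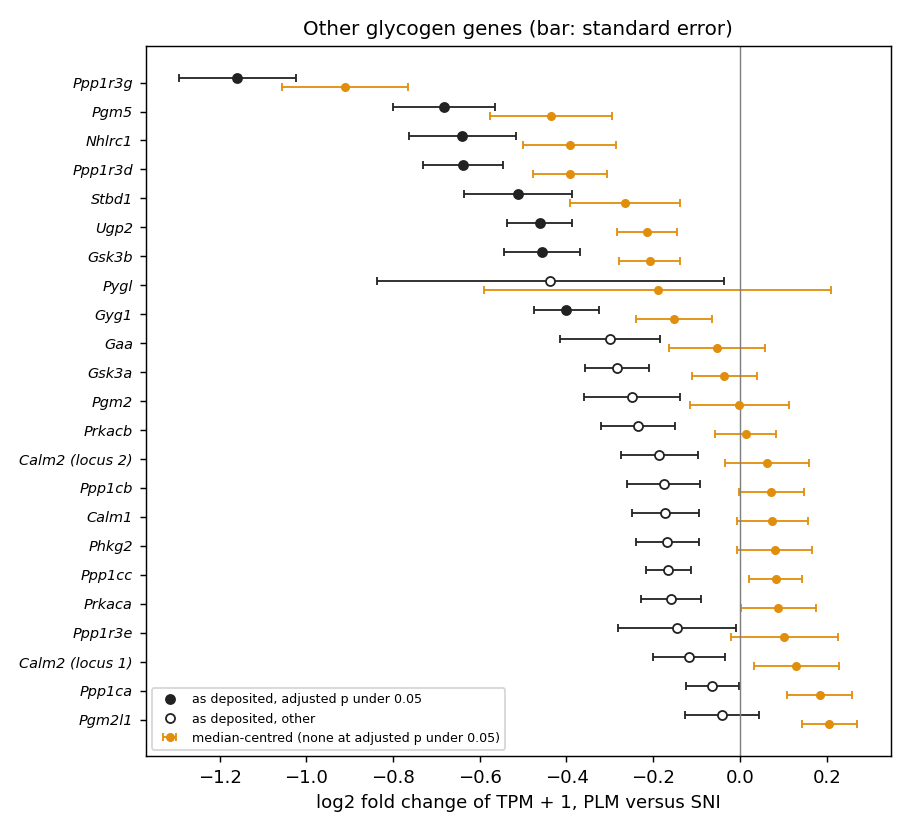
Log2 fold change of TPM + 1 in PLM versus SNI (x axis; points with standard error bars) for 23 loci of the other glycogen genes, as deposited (black, filled where the limma adjusted p-value was under 0.05) and median-centred (orange). Ppp1r3g lies farthest to the left on both scales, and the centred points lie on both sides of 0.

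Of 11 genes for glucose uptake, glucose phosphate handling and lactate, 9 were tested, and 3 fell in PLM versus SNI at an adjusted p-value under 0.05 in limma, against 13.6% of all loci. The count was 1 with all 9 samples in a single fit and 1 after quantile normalization, where 463 and 132 of all loci were called lower in place of 2110. It was 0 with the replicate number as a block, without mitochondrial genes and without the most Schwann-rich libraries, where 151, 267 and 9 of all loci were. Ldhb, the heart-type lactate dehydrogenase subunit, averaged 909 ± 27.7 TPM in SNI against 702 ± 15.6 TPM in PLM (SD, n = 3 each; -0.37 ± 0.05, limma adjusted p = 0.0133). G6pc3, a glucose phosphatase, averaged 42.4 ± 1.44 TPM in SNI against 33.1 ± 2.01 TPM in PLM (-0.35 ± 0.07, limma adjusted p = 0.0292). Hk1, a hexokinase, averaged 81.6 ± 9.35 TPM in SNI against 62.1 ± 3.09 TPM in PLM (-0.38 ± 0.09, limma adjusted p = 0.0455). The median of the 9 was -0.37 as deposited and -0.13 centred, and 0 of the 9 had a centred adjusted p-value under 0.05 in limma, while 1, Hk2, a hexokinase that was higher in PLM on this scale (0.28 ± 0.09), had an unadjusted p-value under 0.05. The centred differences of Ldhb, G6pc3 and Hk1 were -0.13, -0.10 and -0.14, with limma adjusted p-values of 0.428, 0.585 and 0.516.

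Marker lists of cell types were measured beside these genes, since the libraries came from whole tissue, in which fewer cells of a type and less RNA per cell cannot be told apart. Of 15 astrocyte markers 14 were found, and their summed TPM ranged from 4336 to 7063 in JA, from 5952 to 7197 in SNI and from 3169 to 3791 in PLM. Within JA the sum was lowest in replicate 3, and 13 of the 14 markers fell in PLM versus SNI at an adjusted p-value under 0.05 in limma, against 13.6% of all loci, with a median difference of -1.35 as deposited and -1.11 centred. The 13 became 10 after centring, 11 with the replicate block or all 9 samples in a single fit, and 1 without the most Schwann-rich libraries, where 9 of all loci were called lower. The 9 glycogen genes summed to 301, 226 and 154 TPM in JA, 323, 293 and 268 TPM in SNI, and 166, 162 and 145 TPM in PLM, so the same 4 samples, JA replicate 3 and the 3 PLM samples, were lowest by both sums. Neuron and oligodendrocyte markers differed by medians of -0.22 and -0.05 as deposited and 0.02 and 0.20 centred, with 0 of 10 and 0 of 8 at an adjusted p-value under 0.05 in limma, and 3 and 2 at an unadjusted one. Of all 15474 loci, 5739 had an unadjusted p-value under 0.05 as deposited and 2621 after centring. The 8 microglia markers had a median of 0.03 (0.28 centred), and 1 of them fell at an adjusted p-value under 0.05 in limma as deposited. After centring 0 of the 8 did, 7 were above 0 and 6 had an unadjusted p-value under 0.05, and for oligodendrocytes 8 of 8 were above 0 and 4 had one. Of 6 markers of the meninges 5 were tested, with a median of -0.65 (-0.40 centred) in PLM versus SNI, where 2 fell at that threshold as deposited and 0 after centring, and of -0.96 in PLM versus JA, where 0 did and 3 had an unadjusted p-value under 0.05. The 4 blood markers had a median of 0.82 (1.07 centred), and their sum was 7987 to 11176 TPM in PLM and 4117 to 7265 TPM in SNI. In limma 3 of the 4 had an unadjusted p-value under 0.05 as deposited, and 4 of 4 after centring. On the centred scale 3 passed the study's thresholds as higher, against 64 of 15474 loci. On both scales 0 of the 4 had an adjusted p-value under 0.05. The part of cell composition in the glycogen gene differences was not tested.

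Skeletal muscle, the tissue for which Pygm, Phka1 and Gys1 forms are named, was checked with 12 marker genes, of which 10 were found. Their sum was 222 TPM in SNI replicate 1 and between 30.6 and 69.4 TPM in the other 8 samples, and Ckm, muscle creatine kinase, was at 19.5 TPM in SNI replicate 1 and at 1.34 to 4.67 TPM elsewhere. The 9 muscle markers tested were all below 0 in PLM versus SNI, with a median of -0.99 (-0.74 centred), 1 of them at an adjusted p-value under 0.05 in limma (13.6% of all loci) as deposited and 0 after centring. Tnnc2, fast muscle troponin C, was at 33.2 to 68.6 TPM in SNI and 14.7 to 22.6 TPM in PLM. Schwann cell markers had a median of -0.67 (-0.42 centred) in this contrast, with 0 of 5 at an adjusted or an unadjusted p-value under 0.05 in limma as deposited. Pygm was at 104 TPM in SNI replicate 1 and at 100 TPM in SNI replicate 2, which had the lowest muscle sum of the SNI samples. Without SNI replicate 1 the Pygm difference between PLM and SNI was -1.15 and that of Pygb was -0.80, and the part of muscle RNA in these differences was not tested. Leaving out the most Schwann-rich library of each group (JA replicate 3, SNI replicate 2 and PLM replicate 3), a setting chosen after the data had been seen, gave -1.06 for Pygm, -0.96 for Pygb and -0.89 for Phkg1.

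**Figure D5:**
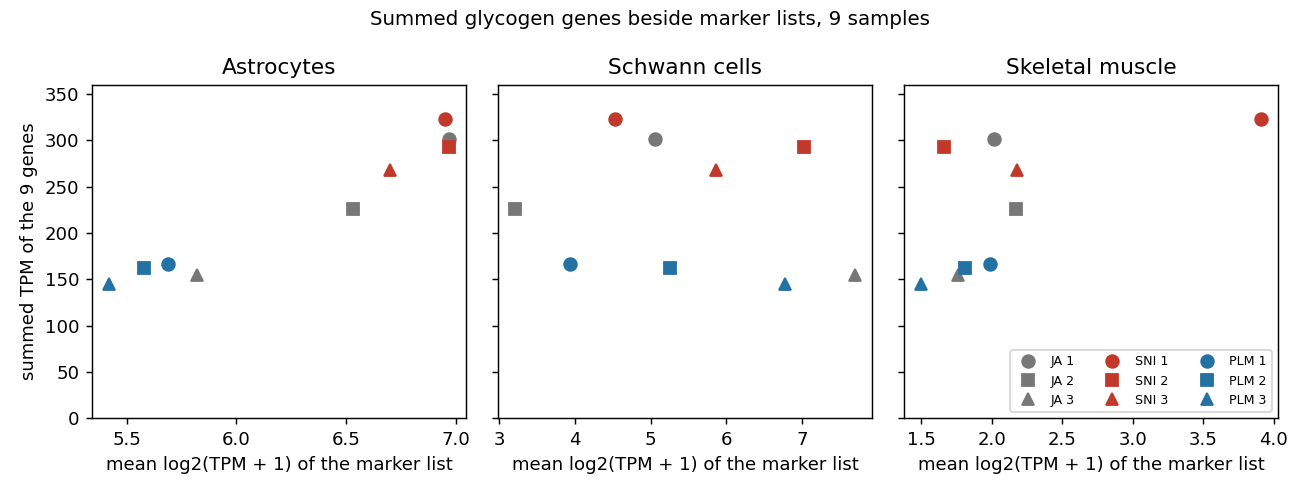
Summed TPM of the 9 glycogen genes (y axis) against the mean log2(TPM + 1) of the markers of astrocytes, Schwann cells and skeletal muscle (x axes) in each of the 9 samples (JA grey, SNI red, PLM blue; circle, square and triangle for replicates 1, 2 and 3). The 3 PLM samples and JA replicate 3 are lowest on both axes of the astrocyte panel, and SNI replicate 1 stands apart in the muscle panel.

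Pygm, Phkg1 and Pygb had the widest ranges of median-centred log2(TPM + 1) over the 9 samples, at 1.46, 1.07 and 1.07, and Gbe1 had the narrowest, at 0.27. For these 3 genes the loci with the most similar profile were found among 13121 named loci by the root mean square difference of centred log2 values over the 9 samples, each profile taken less its own mean. Nearest to Pygm were Acsbg1, a fatty acid activating enzyme, at 0.068, Plcd4, a phospholipase C, at 0.078 and Ndrg2 at 0.091. Acsbg1 was at 165, 128 and 58.2 TPM in JA, 167, 153 and 130 TPM in SNI, and 75.0, 60.4 and 49.5 TPM in PLM, with JA replicate 3 among the PLM samples. The profiles compared include JA replicate 3, so its place there follows from how the locus was chosen. Nearest to Phkg1 were Prdx6, a peroxiredoxin, at 0.076, Phyhd1 at 0.084 and Etnppl, a phosphoethanolamine lyase, at 0.092. Nearest to Pygb were Sparcl1 at 0.076 and the GABA-degrading enzyme Abat at 0.089.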

How the data were processed

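RNA of 9 rat spinal cord samples in 3 groups of 3 (JA, SNI, PLM) was measured by RNA-seq, and groups and replicate numbers were taken from the sample labels. According to the study's methods, adaptors and reads with a quality below 20 were first discarded, and the authors mapped the rest with HISAT2 and quantified expression with StringTie. The submitters' processing notes also name fastp 0.19.5 and CASAVA. The only genome build in those notes is a human one, while 32883 of the 34890 loci carry Ensembl identifiers of the rat, so the rat build is not given in the sources used here. The authors deposited 1 table of TPM values with 2 decimals, which keep no read depth.

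Each pair of groups was fitted in limma 3.58.1 (R 4.3.3; trended empirical Bayes on the 6 samples of the pair, without covariates), using log2(TPM + 1) and loci averaging 1 TPM or more. P-values were adjusted by Benjamini-Hochberg over all loci tested. The added 1 makes fold changes of low genes too small, and errors are SD over 3 samples for levels and standard errors for differences. The fit was tested on simulated data. Calls used the study's thresholds, with the adjusted p-value beside them. The authors' own differential calls with DESeq2 were not used.

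The members, the lists (other glycogen genes, glucose and lactate genes, cell markers) and the tests were chosen with earlier results of these data known. Named from the lists were genes with an adjusted p-value under 0.05 in any contrast, or the 6 with the smallest p in PLM versus SNI where more qualified, and fixed isoforms of phosphorylase, kinase and synthase. Named by likeness were the 3 nearest profiles for each of the 3 members with the widest range. Hk2, Pgm2l1, Ppp1ca, Ckm and Tnnc2 were named after their values had been seen. For 2 genes that these rules would name, results are not reported here, and list counts include them where tested. Myh1, Myh2 and Gpc5 of the marker lists were not analysed here. Alternatives were median centring, TPM without mitochondrial genes, quantile normalization, a pseudocount of 0.1, no filter and a stricter filter, the replicate number as a block, all 9 samples in 1 fit, and the omission of single samples. Leaving out the most Schwann-rich libraries was added after the data had been seen.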

Additional observations from a re-analysis of the deposited data

How the results depend on the processing

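With 3 samples per group and unknown depth, the counting error of low genes could not be given, and the p-values measure the spread between these 9 animals only. In PLM versus SNI, the 2 of 9 members called became 7 by the adjusted p-value alone, 0 after median centring, 1 without mitochondrial genes, 1 after quantile normalization and 1 without the most Schwann-rich library of each group, and between 1 and 2 when single samples were left out. Pygm was called in each of these except median centring, and Phkg1 was the gene lost at the fold threshold. Over all loci, lower calls by the study's thresholds were 220 of 15474 as deposited, 102 after median centring and 119 after quantile normalization. They were 175 of 16055 without mitochondrial genes and 225 of 15345 without the most Schwann-rich libraries. The other glycogen genes called went from 1 to 9 by the adjusted p-value alone, to 0 after median centring and to 0 after quantile normalization, and stayed at 1 without any single sample. In PLM versus JA the count of members rose from 0 to 1 (Pygm) without the most Schwann-rich libraries and ranged from 0 to 1 when single samples were left out (1 without JA replicate 3), and that of the other glycogen genes rose from 0 to 1 (Ppp1r3g) without the most Schwann-rich libraries. Without those libraries the lower calls over all loci also rose, from 101 of 15349 to 202 of 15304. In SNI versus JA no setting gave a call in either list. The cause was not tested. Of the fold changes of members under the alternatives, 381 moved by less than the spread between replicates and 24 by more, and Gbe1 alone changed sign, with values near 0. Of the fold changes of the other glycogen genes that passed in PLM versus SNI, 55 stayed past an adjusted p-value of 0.05 and 80 did not. Over 15 alternatives the limma adjusted p-value ranged from 0.0032 to 0.0789 for Ppp1r3g, from 0.00901 to 0.108 for Ppp1r3d, from 0.0135 to 0.205 for Ugp2, from 0.0142 to 0.207 for Pgm5 and from 0.0197 to 0.435 for Gyg1.

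The labels use the same replicate numbers in each group. Deviations from the group means correlated between -0.05 and 0.13 over the 9 same-numbered pairs, 1 of them over 0.1. The own number gave the best match in 7 of 18 combinations of a sample and another group. No sign of pairing by number was seen, but 3 samples per group cannot show that pairing is absent. With the replicate number as a block, 2 members and 1 other glycogen gene passed the study's thresholds in PLM versus SNI and 0 in the other contrasts, while by the adjusted p-value alone the counts in PLM versus SNI were 3 and 1. With all 9 samples in a single fit those were 1 and 3, and without the most Schwann-rich libraries 0 and 0. Over all loci the lower calls went from 2110 to 151, 463 and 9 in these 3 settings.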
